A study of Mus musculus with 6 samples.

Results

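The genes described here encode the proteins of the mitochondrial ribosome, measured by RNA sequencing in activated mouse CD4 T cells that lack Foxo1 and in their controls. Members were taken by symbol: every gene of the deposited normalized table named Mrpl or Mrps followed by a number, pseudogenes with -ps left out. The rule found 78 genes of the 13564 in that table, 49 named Mrpl and 29 named Mrps. All 78 had enough reads to be tested, so none was lost to the filter on low counts (10 or more reads in 3 or more libraries, which kept 13691 genes of the 55487 counted).

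The mitochondrial ribosome, or mitoribosome, translates the small set of mRNAs encoded by mitochondrial DNA, all of which specify membrane subunits of the respiratory chain and ATP synthase. Its RNA is transcribed inside the mitochondrion, whereas its proteins are encoded in the nucleus, made in the cytosol and imported, so that both genomes have to supply parts of 1 particle. Part of the proteins descend from the bacterial ribosome and part were acquired later by mitochondria. T cells enlarge their mitochondria and raise mitochondrial translation when they leave quiescence, and Foxo1 is a transcription factor that is active in quiescent T cells and is switched off by signalling through the antigen receptor.

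Naive CD4 T cells came from lymph nodes of C57BL/6J mice of 2 genotypes, Foxo1TKO and Foxo1Ctrl (3 libraries each; young adult mice that carry a Foxp3-GFP reporter, per the study). Both carry floxed Foxo1 alleles (Foxo1 fl/fl). Foxo1TKO mice also carry CD4cre, with which recombination takes place in thymocytes that hold both CD4 and CD8, so CD8 T cells lose Foxo1 as well, and Foxo1Ctrl mice carry no Cre, so that Cre expression and the loss of Foxo1 cannot be told apart. In both genotypes, 50000 naive cells by the labels (the methods of the study give a larger number for this kind of culture) were activated for 4 days with the anti-CD3 antibody 145-2C11 at 0.1 µg/ml and 250000 splenocytes of CD3eKO mice, which lack T cells, as antigen-presenting cells. Neither a removal of splenocytes before RNA extraction nor a count of donor mice is stated in the labels, which do not say whether the 3 libraries of a genotype are independent mice or cultures, so p-values measure the spread between these libraries only.

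Libraries held between 14783890 and 19675452 counts, of which the 78 genes took between 0.527% and 0.763%. Foxo1 itself had 85.4, 46.5 and 115 normalized counts in Foxo1TKO replicates 1, 2 and 3, against 1529, 2285 and 1598 in Foxo1Ctrl, so each Foxo1TKO library lay far below every control. A normalized count is a raw count divided by the library's scaled total and set to the mean depth of the 6 libraries. None of the 8 T cell markers examined passed the test with all 6 libraries (2 were called lower without the 2 libraries named next), and their summed normalized counts ran from 118168 to 125219 in Foxo1TKO against 127626 to 140055 in Foxo1Ctrl. 2 libraries stood apart from the rest of their genotype over the mitoribosomal genes, Foxo1Ctrl replicate 2 and Foxo1TKO replicate 1.

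In Foxo1TKO cells, 13 of the 78 mitoribosomal protein genes were higher and 0 were lower than in Foxo1Ctrl (edgeR quasi-likelihood test, adjusted p under 0.05). The 13 are 16.7% of the members, beside a background of 11.8% of all 13691 genes called higher. For the lower direction the background was 12.4%. At an unadjusted p under 0.05, 24 members were higher (all genes 18.4%) and 0 lower, and DESeq2 called 18 higher (all genes 14.7%) and 0 lower. Fitted changes leaned upward across the family: 59 members had a log2 fold change above 0 and 19 below it, with a median of 0.31 (a 1.24-fold level), beside a median of 0.01 over all genes. The interquartile range of the members ran from 0.02 to 0.51, a narrower band than the -0.46 to 0.45 of all genes. The members were also more abundant (median TPM, a level per length, of 112 against 9.77 over all genes). Their fitted changes had a smaller median SE (0.19 against 0.28). The part of abundance in the narrower band and in the share called was not tested. In 23 members (29.5%) every Foxo1TKO library lay above every Foxo1Ctrl library, beside 21.5% of all genes, and in 4 every Foxo1TKO library lay below (background 21.2%). With bulk RNA, a higher level in each T cell and a larger share of cells with many mitochondria cannot be told apart.

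**Figure D1:**
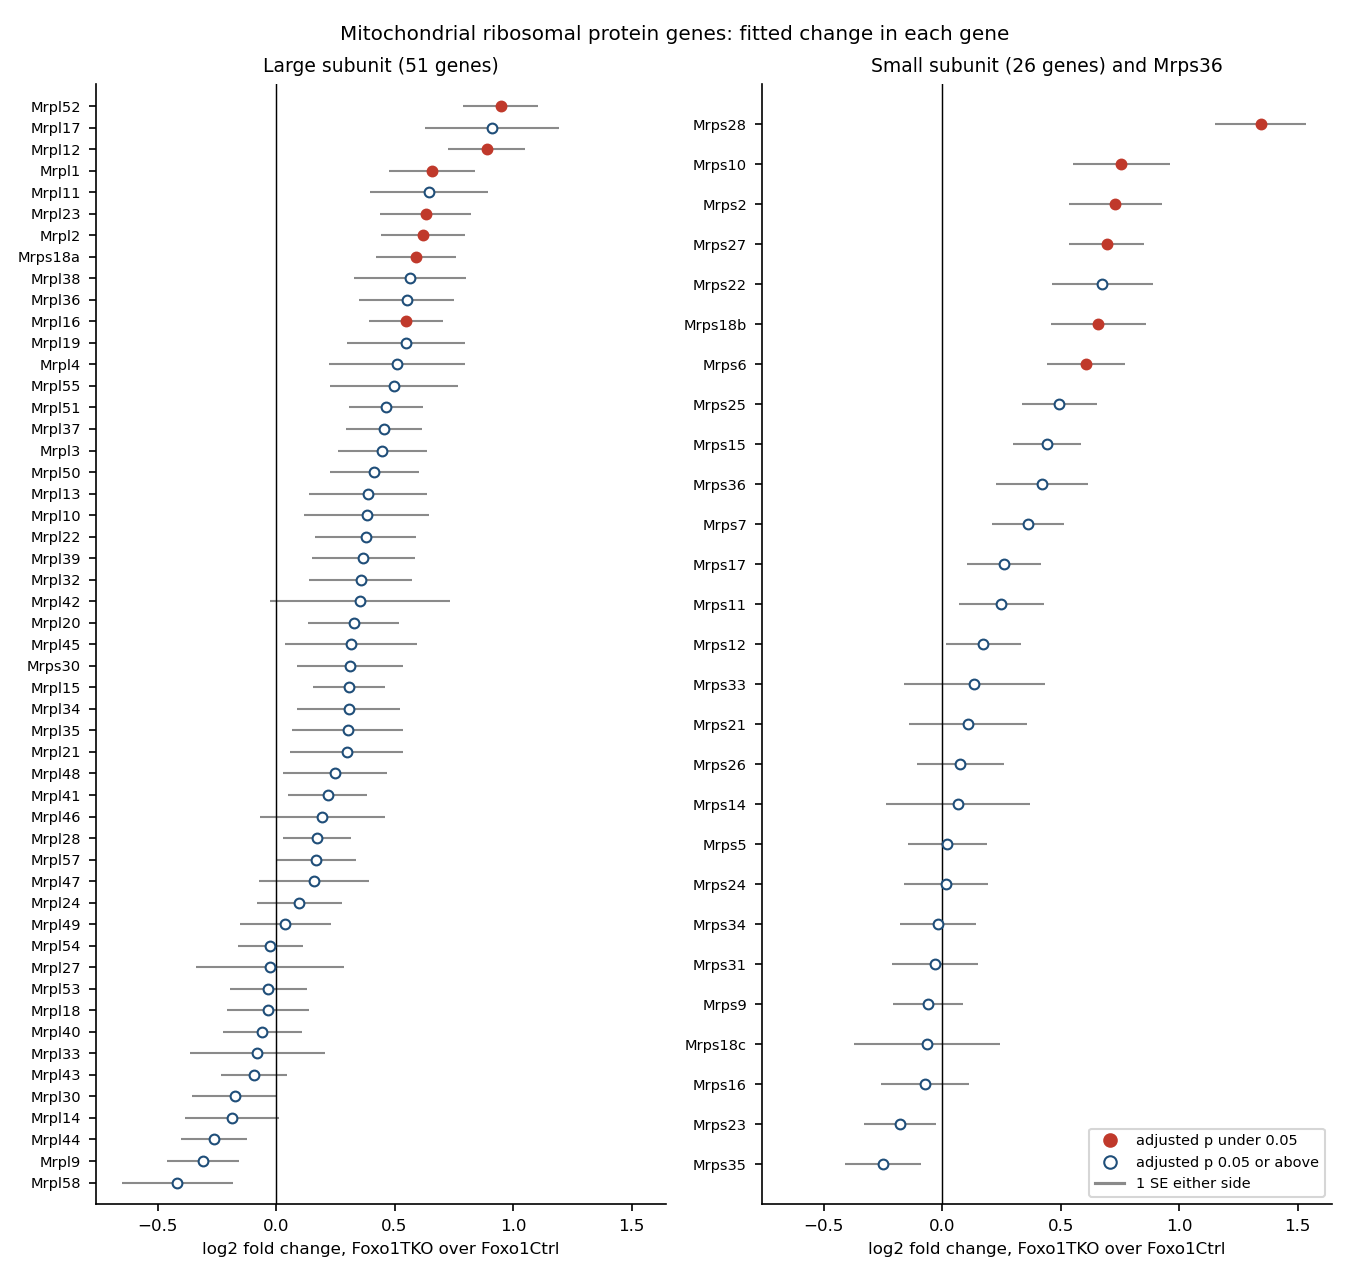
Log2 fold change of each of the 78 genes, Foxo1TKO over Foxo1Ctrl, in the 51 large-subunit genes (left) and in the 26 small-subunit genes and Mrps36 (right); bars reach 1 SE to either side. Filled points mark the 13 genes with an adjusted p under 0.05, all to the right of 0, and most open points lie between 0 and 0.5.

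Of the 51 genes for proteins of the large subunit, 7 were called higher (13.7%, all genes 11.8%), with a median log2 fold change of 0.32 over all 51. Mrpl52, which encodes a protein that mitochondria added to the ribosome, gave the largest change among them. It lies at chr14:54426909-54429756 on the plus strand (GRCm38) and had 606, 575 and 602 normalized counts in Foxo1TKO replicates 1, 2 and 3 and 298, 297 and 327 in Foxo1Ctrl. The groups were far apart and the libraries within each nearly equal: 594 ± 17.1 against 307 ± 16.6 (mean ± SD, n = 3 each), log2 fold change 0.95 ± 0.16 (SE), adjusted p = 0.00449. Mrpl12 (chr11:120484613-120489065, plus strand) encodes the stalk protein that contacts translation factors and has also been found bound to mitochondrial RNA polymerase. Its counts were 1770.0, 1522 and 1492 in Foxo1TKO and 888, 739.8 and 955 in Foxo1Ctrl, again without overlap, and the change was 1.85-fold (log2 fold change 0.89 ± 0.16 (SE), adjusted p = 0.00641).

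The other 5 large-subunit genes that were called changed less. Mrpl1, whose bacterial counterpart forms the mobile stalk by which spent tRNAs leave, had 1092, 1180.1 and 1319 counts against 699, 921 and 655 (log2 fold change 0.66 ± 0.18 (SE), adjusted p = 0.0339). Mrpl2, a core protein near the peptidyl transferase centre, had 1223, 1450.3 and 1719 against 904, 1075 and 881 (log2 fold change 0.62 ± 0.18 (SE), adjusted p = 0.0383). Mrpl16 had 908, 1015 and 1068 against 620.0, 749 and 673 (log2 fold change 0.55 ± 0.16 (SE), adjusted p = 0.0378). In these 3 genes every Foxo1TKO library lay above every control, and Foxo1Ctrl replicate 2 was the highest control. Mrps18a, a large-subunit protein despite its name, had 1528, 1719.7 and 1773 counts against 1005, 1329.9 and 994 (log2 fold change 0.59 ± 0.17 (SE), adjusted p = 0.0377). Mrpl23, a protein of the peptide exit region, was the call nearest the threshold, with 1221, 1293 and 1452 against 697, 1062 and 799 (log2 fold change 0.63 ± 0.19 (SE), adjusted p = 0.0473).

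Small-subunit genes numbered 26, of which 6 were called higher (23.1%, all genes 11.8%), with a median log2 fold change of 0.15. Mrps28 (chr3:8802146-8923918, minus strand), the counterpart of a bacterial small-subunit protein, changed most of all 78. It had 539, 606 and 693 normalized counts in Foxo1TKO and 205, 264 and 253 in Foxo1Ctrl, a 2.54-fold difference (log2 fold change 1.34 ± 0.19 (SE), adjusted p = 0.00228). Every Foxo1TKO library held a count above that of every control. Mrps10 (chr17:47368887-47381417, plus strand), a protein of the small-subunit head, had 1691, 2148 and 2273 against 972, 1497 and 1149 (log2 fold change 0.76 ± 0.20 (SE), adjusted p = 0.0312). Mrps2, which is also the gene with the lowest mean level per length, had 514, 428 and 448 against 312, 226 and 297 (log2 fold change 0.73 ± 0.20 (SE), adjusted p = 0.0307). Mrps27, a pentatricopeptide repeat protein that binds mitochondrial rRNA, had 1089, 1199 and 1179 against 688, 638 and 816 (log2 fold change 0.69 ± 0.16 (SE), adjusted p = 0.0162). In Mrps2 and Mrps27 Foxo1Ctrl replicate 2 was the lowest control, the opposite of most members. Mrps18b had 878, 1039.7 and 1169 against 597, 802 and 554 (log2 fold change 0.66 ± 0.20 (SE), adjusted p = 0.0471). Mrps6 had 936, 789 and 795 against 545, 496 and 610.4 (log2 fold change 0.61 ± 0.17 (SE), adjusted p = 0.0318). Exons of Mrps6 overlap those of Slc5a3 on the same strand, and those of Mrpl12, Mrps27 and Mrps18b overlap other gene models on the opposite strand; whether counting used strand is not given in the sources used here.

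**Figure D2:**
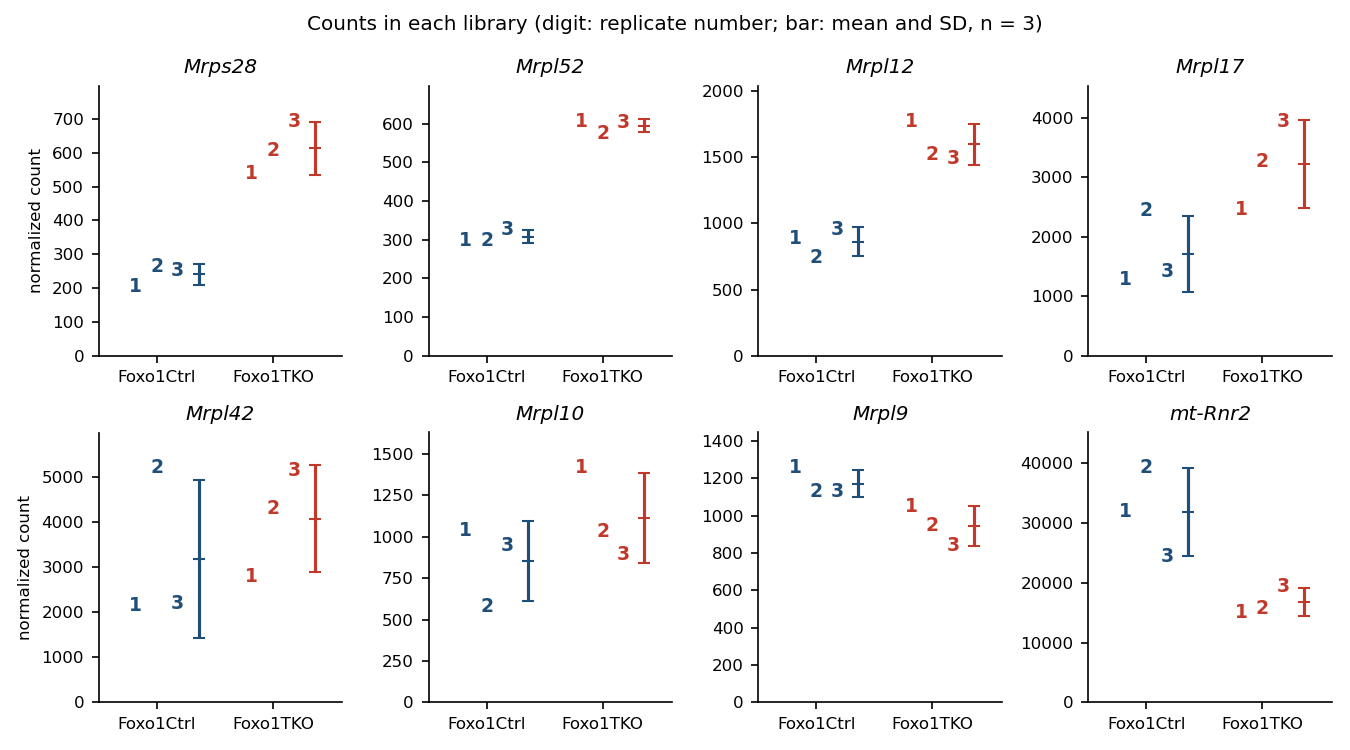
Normalized counts (vertical axis, from 0) of 8 genes in the 3 Foxo1Ctrl and 3 Foxo1TKO libraries, each digit a replicate number and each bar a mean with its SD. Mrps28, Mrpl52 and Mrpl12 are higher in all 3 Foxo1TKO libraries, Foxo1Ctrl replicate 2 lies high in Mrpl17 and Mrpl42 and low in Mrpl10, Mrpl9 is slightly lower in Foxo1TKO without passing the test, and the rRNA mt-Rnr2 is lower.

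Around the threshold, size and call did not go together. Mrpl17 showed the third largest change of all members but missed the threshold narrowly. It had 2466, 3263 and 3944 counts against 1278, 2448 and 1419 (log2 fold change 0.91 ± 0.28 (SE), adjusted p = 0.0515), and Foxo1Ctrl replicate 2 nearly reached the lowest Foxo1TKO library. In all, 15 members had a fitted fold above 1.5, and the 3 of these that were not called were Mrpl17, Mrps22 and Mrpl11. Mrps22 had 748, 870.4 and 761 against 376, 627 and 485 (log2 fold change 0.68 ± 0.21 (SE), adjusted p = 0.0546). Mrpl11, the base of the stalk that holds Mrpl12, had 954, 1157 and 1229 against 541, 989 and 604 (log2 fold change 0.65 ± 0.25 (SE), adjusted p = 0.101), with the groups overlapping.

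At the other end, no member passed the test downward. In 4 genes every Foxo1TKO library lay below every control, and no fitted change among them was below -0.31 on the log2 scale. Mrpl9, the counterpart of a bacterial large-subunit protein, had 1049.8, 948 and 838 against 1257, 1129.8 and 1128 (log2 fold change -0.31 ± 0.15 (SE), adjusted p = 0.186). Mrpl44, which carries a fold related to RNase III, had 1279.7, 1276 and 1132 against 1433, 1421 and 1568 (log2 fold change -0.26 ± 0.14 (SE), adjusted p = 0.215). Mrps35 and Mrpl43 were the remaining pair, with log2 fold changes of -0.25 (adjusted p = 0.3) and -0.09 (adjusted p = 0.68). Mrpl9, Mrps35, Mrpl43, Mrps22, Mrpl4, Mrpl2, Mrpl16, Mrps6 and the assembly gene Nsun4 are outside the naming rule and were named after their values were seen. Mrpl58, also known as Ict1, encodes a peptidyl-tRNA hydrolase that frees stalled ribosomes and sits in the large subunit as a structural protein. It had the lowest fitted change of the family, from 2155, 2887 and 3104 counts in Foxo1TKO against 3133, 4830.1 and 2915 in Foxo1Ctrl (log2 fold change -0.42 ± 0.24 (SE), adjusted p = 0.244), and its groups overlapped.

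Among the 13 members chosen for described roles, Mrpl12, Mrps18a and Mrps18b were called higher and the others were not. Most members of the whole family were not called either, with 16.7% called higher. The stalk base protein Mrpl10, the binding partner of Mrpl12, had 1417, 1034 and 894 counts against 1036, 581 and 950.5 (log2 fold change 0.38 ± 0.26 (SE), adjusted p = 0.341). Its values overlapped between genotypes, whereas those of Mrpl12 did not. Mrps12, part of the decoding centre, had 1226, 1377 and 1425 against 1060.0, 1373 and 1138 (log2 fold change 0.17 ± 0.16 (SE), adjusted p = 0.477). Mrpl45, which lines the peptide exit and anchors the ribosome at the inner membrane, had 1961, 2873 and 3245 against 1635, 3021 and 1835 (log2 fold change 0.32 ± 0.28 (SE), adjusted p = 0.46). For Mrpl41 the counts were 1404, 1601 and 1803 against 1278, 1599 and 1257 (log2 fold change 0.22 ± 0.17 (SE), adjusted p = 0.394). In each of these 4 genes at least 1 control library reached into the Foxo1TKO range.

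The 3 Mrps18 genes, paralogues that occupy different places in the ribosome, had unlike fitted changes. Mrps18b and Mrps18a were both called higher, with log2 fold changes of 0.66 and 0.59. Mrps18c, the closest counterpart of the bacterial protein, had 1433, 2086 and 2160.3 counts against 1474, 2996 and 1466 (log2 fold change -0.06 ± 0.31 (SE), adjusted p = 0.906), and its direction turned to 0.37 without Foxo1Ctrl replicate 2. The difference between the paralogues' changes was not tested. Mrps30, a large-subunit protein, had 2474, 1833 and 1822 against 1874, 1186 and 1883 (log2 fold change 0.31 ± 0.22 (SE), adjusted p = 0.362). Mrps36, which despite its name is a subunit of the oxoglutarate dehydrogenase complex and not of the ribosome, had 900.2, 1049 and 1147 against 666, 955 and 689.8 (log2 fold change 0.42 ± 0.19 (SE), adjusted p = 0.16), a fitted change within the range of the ribosomal members.

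Members were also grouped by descent rather than by subunit. The 46 proteins with a bacterial counterpart (by the systematic ribosomal protein names) had 9 genes called higher and a median log2 fold change of 0.32. The 31 proteins specific to mitochondria had 4 and a median of 0.22. These were 19.6% and 12.9%, beside 11.8% of all genes. Without both libraries that stood apart, which were chosen over these same members, the first group gave 31 higher and 1 lower. The second gave 17 higher and 0 lower. Of all genes, 20.2% were then higher and 20.6% lower. Within the large subunit the medians were 0.37 for 30 genes and 0.25 for 21, and within the small subunit 0.21 for 16 and 0.11 for 10. These are descriptions; no difference between the groups was tested.

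Levels per length differed 42.5-fold among members. On the TPM scale, transcript abundance corrected for length, 40 members had a mean above 100 over the 6 libraries. Mrpl33 was highest, at a mean of 537 TPM, followed by Mrps21 at 514 TPM and Mrpl42 at 448 TPM. All 3 have short transcripts, with effective lengths of 338, 275 and 521 bases, where the median of all tested genes was 1894. None of the 3 was called: Mrpl33 had 1973, 3019 and 3251 normalized counts against 2226, 4117 and 2365 (log2 fold change -0.08 ± 0.29 (SE), adjusted p = 0.872), and Mrps21 1772, 2358 and 2700.1 against 1654, 2849.6 and 1821 (log2 fold change 0.11 ± 0.25 (SE), adjusted p = 0.788). Lowest were Mrps2 at 12.6 TPM, Mrpl38 at 25.8 TPM and Mrpl47 at 28.2 TPM. Mrpl38 had 509, 526 and 442 counts against 372, 229 and 395 (log2 fold change 0.57 ± 0.24 (SE), adjusted p = 0.126), and Mrpl47 472, 576 and 475 against 416, 598 and 351 (log2 fold change 0.16 ± 0.23 (SE), adjusted p = 0.669). Across the 78 genes, fitted change and mean TPM had a Spearman correlation of -0.33, a description of genes that share libraries.

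Summed over the 78 genes, the level was 10874, 11808 and 11888 TPM in Foxo1TKO replicates 1, 2 and 3 and 8819.9, 10955 and 8938 TPM in Foxo1Ctrl replicates 1, 2 and 3. Foxo1Ctrl replicate 2 lay above Foxo1TKO replicate 1, so on the TPM scale the sums of the genotypes overlapped through this pair of libraries alone. Summed normalized counts were 108727, 127708 and 135095 in Foxo1TKO against 92976, 130485 and 93755 in Foxo1Ctrl. On that scale Foxo1Ctrl replicate 2 lay above both Foxo1TKO replicates 1 and 2. Large-subunit genes held 2.11, 2.08 and 2.13 times the TPM of small-subunit genes in Foxo1TKO and 2.06, 1.97 and 2.00 times in Foxo1Ctrl. The ratio was thus nearly constant, and the 3 highest values were those of Foxo1TKO.

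The family also varied together within each genotype. In Foxo1Ctrl replicate 2, 64 of the 78 genes (82.1%, all genes 48.5%) lay above the mean of replicates 1 and 3. The median log2 difference was 0.41, where the median over all genes was -0.02. In Foxo1TKO replicate 1, 63 lay below the mean of replicates 2 and 3 (median -0.21, all genes -0.02). Both shifts were seen in many of the members: 61 members showed both and 12 showed neither. Mrpl42 was the most extreme, with 2140.2, 5204 and 2204 counts in Foxo1Ctrl replicates 1, 2 and 3 and 2787, 4301 and 5134 in Foxo1TKO (log2 fold change 0.36 ± 0.38 (SE), adjusted p = 0.545). Mrpl4 and Mrpl10 were the most extreme the other way, and Mrpl4 had 975, 577 and 973 in Foxo1Ctrl and 1643, 1050.2 and 907 in Foxo1TKO.

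**Figure D3:**
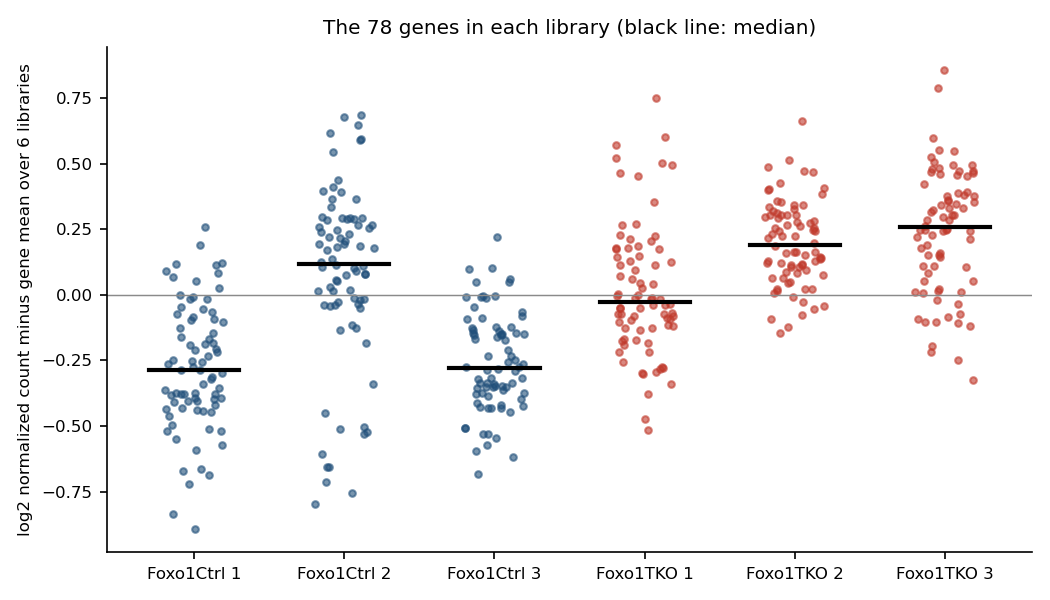
Log2 normalized count of each of the 78 genes minus its mean over the 6 libraries (vertical axis), by library, with the median as a black line. The median is -0.29 in Foxo1Ctrl replicate 1 and -0.28 in replicate 3 but 0.12 in replicate 2, and -0.03, 0.19 and 0.26 in Foxo1TKO replicates 1, 2 and 3.

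These shifts went along with measures of the transcripts. Across the 78 genes, the difference in Foxo1Ctrl replicate 2 and that in Foxo1TKO replicate 1 had a Spearman correlation of -0.85 (-0.55 across all genes). The shift in Foxo1Ctrl replicate 2 correlated with effective length at -0.39 and with GC content at -0.30 across members, and at -0.21 and -0.40 across the 13679 tested genes with a GC value. The points are genes that share libraries, so the coefficients carry no p. The 12 members with Foxo1Ctrl replicate 2 below both other controls had a median effective length of 1179 bases, and the 62 with it above both had 757. The genotype change itself correlated with length at 0.18 across members. The part of length and GC content in the shifts was not tested beyond the corrected fits. Correcting for GC content, which was added after the data were seen, left 13 members higher and a median of 0.27. Of the 13 first called, 9 were among them. More of all genes were called higher with this correction than in the main fit, while the share of members stayed at 16.7%. The members thus stood closer to the background in the corrected fit.

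**Figure D4:**
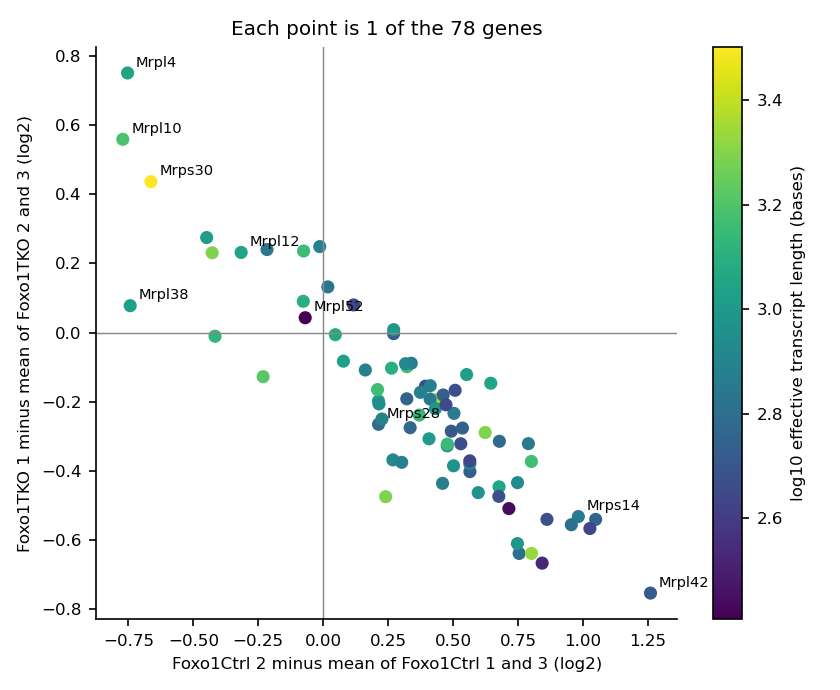
For each of the 78 genes, Foxo1Ctrl replicate 2 minus the mean of Foxo1Ctrl replicates 1 and 3 (horizontal, log2) against Foxo1TKO replicate 1 minus the mean of Foxo1TKO replicates 2 and 3 (vertical, log2), coloured by effective length. Points run from upper left to lower right, most of them at the lower right, where Mrpl42 lies farthest out, and Mrpl4, Mrpl10 and the long Mrps30 lie at the upper left.

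How many members were called depended on these libraries. Without Foxo1Ctrl replicate 2, 28 members were called higher and 0 lower, beside 13.7% of all genes higher and 11.9% lower, with a median log2 fold change of 0.45. Without both libraries, a setting chosen after the data were seen, 49 members were called higher and 1 lower, where the backgrounds were 20.2% and 20.6%. The median was then 0.53, and the 1 lower was Mrpl9 (log2 fold change -0.41, adjusted p = 0.0419). By subunit, the large-subunit genes then gave 32 higher and 1 lower of 51 (19 higher and 0 lower without Foxo1Ctrl replicate 2 alone) and the small-subunit genes 16 higher and 0 lower of 26 (8 higher and 0 lower). All 13 first called were among the 49. The 2 libraries were chosen because they stood apart over these same members. A larger count and a higher median without them therefore follow in part from that choice and are no separate support. The same holds for Foxo1Ctrl replicate 2 left out alone. With both left out, Mrpl17 was called at 1.42 (adjusted p = 0.000204), whereas Mrpl10 stood at -0.040 and Mrps30 at -0.038. In 51 members every Foxo1TKO library lay above Foxo1Ctrl replicates 1 and 3, beside 28.5% of all genes. Leaving out any of the other 4 libraries, or Foxo1TKO replicate 1 alone, lowered the count: it was 7 without Foxo1TKO replicate 1, 3 without replicate 2, 3 without replicate 3, 3 without Foxo1Ctrl replicate 1 and 4 without replicate 3. In that order these were 8.97%, 3.85%, 3.85%, 3.85% and 5.13% of the members, beside 8.17%, 4.96%, 6.96%, 6.6% and 8.46% of all genes, so in 4 of the 5 fits the share of members lay below that of all genes. Mrps28, Mrpl52 and Mrpl12 were the 3 members called in every one of the 6 fits without 1 library.

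The RNA of the mitoribosome went the other way. Both mitochondrial rRNAs were called lower in Foxo1TKO, each without overlap between genotypes. The small-subunit rRNA mt-Rnr1 had 1450.5, 1705 and 2224 counts against 3478, 4619.7 and 2740.0 (log2 fold change -1.01 ± 0.24 (SE), adjusted p = 0.0187). The large-subunit rRNA mt-Rnr2 had 15101, 15717 and 19420.2 against 31975, 39258 and 24489 (log2 fold change -0.93 ± 0.21 (SE), adjusted p = 0.0153). Both calls were lost without Foxo1TKO replicate 1 (adjusted p = 0.0585 and 0.053) and without Foxo1TKO replicate 2, and that of mt-Rnr2 also without Foxo1Ctrl replicate 1. Without Foxo1TKO replicate 1 and Foxo1Ctrl replicate 2 together, both were called lower, at -0.66 and -0.68. How RNA was selected for sequencing is not given in the sources used here. Of the 13 protein-coding genes of mitochondrial DNA, whose mRNAs the mitoribosome translates, 1 was called higher (7.69%, all genes 11.8%) and 0 lower. Without both of these libraries, 6 of 12 tested were higher and 0 lower, beside 20.2% of all genes higher. Over the 13 genes Foxo1Ctrl replicate 2 differed from the other controls by a median of 0.60 on the log2 scale. Foxo1TKO replicate 1 differed from replicates 2 and 3 by -0.52. The call with all 6 libraries was mt-Nd1, a complex I subunit whose gene follows mt-Rnr2 on the same strand. It had 14084, 17921 and 24574 against 8874, 12734 and 10364 (log2 fold change 0.82 ± 0.24 (SE), adjusted p = 0.0388). That call was lost without Foxo1TKO replicate 2 or 3 or Foxo1Ctrl replicate 1 or 3, with log2 fold changes between 0.60 and 0.87.

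Of the 5 mitoribosomal proteins whose symbols are neither Mrpl nor Mrps, 0 were called, and the median log2 fold change was 0.24. Without Foxo1Ctrl replicate 2, 2 were called higher (median 0.28, all genes 13.7% called higher), and without Foxo1TKO replicate 1 as well, 3 (median 0.34, all genes 20.2%). Dap3, a GTP-binding small-subunit protein, had 2173, 2200.5 and 2149.6 against 1756, 1911 and 1848 (log2 fold change 0.24 ± 0.13 (SE), adjusted p = 0.213), and its groups did not overlap. Ptcd3 stood at 0.41, Chchd1 at 0.30, Gadd45gip1 at 0.19 and Aurkaip1 at -0.10 on the log2 scale, with adjusted p between 0.256 and 0.772. Genes for the assembly of the mitoribosome and the maturation of its rRNA numbered 27, of which 4 were called higher and 0 lower (14.8% higher, all genes 11.8%, median 0.26). They were the rRNA methyltransferase Mrm3 (log2 fold change 0.94 ± 0.24 (SE), adjusted p = 0.0237), Rcc1l (log2 fold change 0.87 ± 0.24 (SE), adjusted p = 0.0364), the GTPase Mtg1 (log2 fold change 0.63 ± 0.16 (SE), adjusted p = 0.0226) and the methyltransferase Nsun4 (log2 fold change 0.60 ± 0.16 (SE), adjusted p = 0.0281).

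Fitted changes of factors that work with the mitoribosome also had medians above 0. Of 16 translation factors tested, 2 were called higher and 0 lower (median 0.40): the ribosome recycling factor Mrrf (log2 fold change 0.88 ± 0.20 (SE), adjusted p = 0.0173) and the elongation factor Tsfm (log2 fold change 0.81 ± 0.23 (SE), adjusted p = 0.0367). Of 17 mitochondrial aminoacyl-tRNA synthetases, 3 were called higher and 0 lower (median 0.39). Ears2 had 181, 168 and 93.4 against 32.2, 40 and 65.9 (log2 fold change 1.65 ± 0.38 (SE), adjusted p = 0.0165), Yars2 stood at 1.31 (adjusted p = 0.0185) and Fars2 at 0.96 (adjusted p = 0.00883). Together with the 5 proteins and the assembly genes, 9 of 65 other genes of mitochondrial translation were called higher and 0 lower, 13.8% beside the background of 11.8%. Without both libraries that stood apart, the assembly genes gave 5 higher and 2 lower, the translation factors 6 higher and 1 lower and the synthetases 4 higher and 3 lower. Of all genes, 20.2% were then called higher and 20.6% lower. Their medians were then 0.16, 0.32 and 0.06 (0.21, 0.34 and 0.09 without Foxo1Ctrl replicate 2 alone), and that of the members was 0.53. In contrast to the ribosomal proteins, Foxo1Ctrl replicate 2 was not raised over the synthetases (median difference from the other controls -0.37 on the log2 scale), the translation factors (-0.14) or the assembly genes (-0.15). Foxo1TKO replicate 1 differed from replicates 2 and 3 by a median of 0.29 over the synthetases and -0.21 over the members. Leaving out these libraries thus lowers the synthetases' median and raises the members', so the gap does not show a difference between the families.

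Among 13 genes for maintenance and transcription of mitochondrial DNA, 2 were called higher (15.4%, all genes 11.8%) and 0 lower (all genes 12.4%). The mitochondrial topoisomerase Top1mt had 178, 199 and 175 counts against 44.1, 17.2 and 27.1 (log2 fold change 2.61 ± 0.35 (SE), adjusted p = 0.0018), and the nuclease Mgme1 had 440.4, 462 and 425 against 242, 223 and 234 (log2 fold change 0.92 ± 0.17 (SE), adjusted p = 0.00608). Of 9 tested regulators of mitochondrial biogenesis, 2 were called higher and 1 lower, 22.2% and 11.1% beside the same backgrounds. Myc, which drives ribosome production in activated lymphocytes, had 6511, 5225 and 5121 against 1492, 1291 and 1973 (log2 fold change 1.82 ± 0.20 (SE), adjusted p = 0.000761). Pprc1, a coactivator of the PGC-1 family, had 133, 111 and 95.5 against 33.4, 37.7 and 48.4 (log2 fold change 1.48 ± 0.28 (SE), adjusted p = 0.00777). Gabpb2, a partner of the ETS factor Gabpa, had 403, 418 and 343 against 875, 649.5 and 729 (log2 fold change -0.95 ± 0.18 (SE), adjusted p = 0.00839). These 5 calls held in every alternative fit that was run. Without both libraries that stood apart, the maintenance genes gave 4 higher and 0 lower and the regulators 2 higher and 3 lower, beside 20.2% of all genes higher and 20.6% lower.

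The upward lean was shared with other gene families and cannot be called particular to the mitoribosome. Of 73 cytosolic ribosomal protein genes, 20 were called higher and 0 lower, 27.4% beside the 11.8% of all genes, with a median log2 fold change of 0.33. In 51 of these 73 (69.9%) every Foxo1TKO library lay above every control, against 23 of the 78 mitoribosomal genes (29.5%) and 21.5% of all genes. The median log2 difference of Foxo1Ctrl replicate 2 from the other controls was 0.16 over the cytosolic family and 0.41 over the mitoribosomal one. A rule of the same kind named 94 nuclear genes for the respiratory chain and ATP synthase, including assembly factors. Of these, 12 were called higher and 0 lower, 12.8% beside the 11.8% of all genes. Their median log2 fold change was 0.29, and their difference in Foxo1Ctrl replicate 2 was 0.57. Without Foxo1Ctrl replicate 2 the cytosolic family gave 33 higher and 0 lower and the respiratory chain genes 35 higher and 0 lower. Without that library and Foxo1TKO replicate 1 they gave 43 higher and 1 lower of 73 and 65 higher and 0 lower of 92. Of all genes, 13.7% were called higher in the first of these settings and 20.2% in the second. None of the differences between families was tested.

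**Figure D5:**
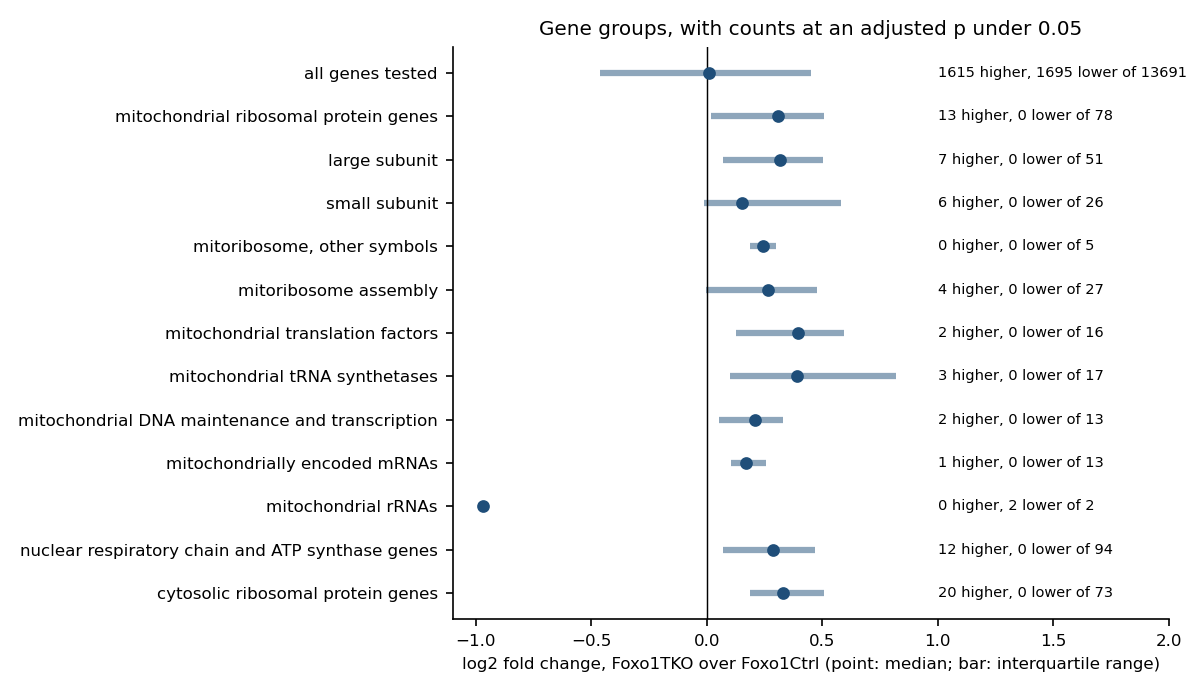
Median log2 fold change (points) and interquartile range (bars) for the mitoribosomal protein genes, their subunits, related gene lists and all genes tested, with counts at an adjusted p under 0.05 at the right. The protein groups lie at similar values above 0, and the 2 mitochondrial rRNAs lie near -1.

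Markers of other cell types also differed between the genotypes. Of 6 B cell markers tested, 5 were called lower in Foxo1TKO, and the sum over all 8 listed was 5038 to 6179.6 in Foxo1TKO against 13031 to 21792 in Foxo1Ctrl. Nearly all of it was Ighm, the immunoglobulin heavy chain, with 6036, 5799.5 and 4888 against 21248, 12514 and 17423 (log2 fold change -1.61 ± 0.22 (SE), adjusted p = 0.00173). Dendritic cell markers summed to 554 to 631 in Foxo1TKO against 153 to 265 in Foxo1Ctrl. Among the 3 tested the only call was Itgax, with 349.9, 411 and 485 against 1.19, 0 and 0.969 normalized counts. Itgax thus held most of the Foxo1TKO sum. Zbtb46 had 129, 135 and 119 against 213, 112 and 210 (log2 fold change -0.48, adjusted p = 0.273). Xcr1 had 67.6, 56.2 and 18.2 against 22.7, 30.9 and 50.4 (log2 fold change 0.44, adjusted p = 0.585). Siglech, Flt3 and Clec9a were below the filter. Macrophage markers (0 of 7 tested) summed to 7.02 to 17.2 in Foxo1TKO against 1.14 to 11.9 in Foxo1Ctrl, with Mertk at 0 throughout, and neutrophil markers (0 of 5 tested) to 4.29 to 25.4 in Foxo1TKO against 0 to 3.58 in Foxo1Ctrl. NK cell markers (2 of 3 tested, 0 called) summed to 39.7 to 64.2 in Foxo1TKO against 46.5 to 88.2 in Foxo1Ctrl, erythroid markers (3 of 6 tested, 0 called) to 227 to 385 in Foxo1TKO against 305 to 428 in Foxo1Ctrl, and CD8 T cell markers (1 of 2 tested, 0 called) to 91.2 to 145 in Foxo1TKO against 144 to 161 in Foxo1Ctrl. Of 13 proliferation markers, 5 were called higher and 0 lower (median log2 fold change 0.62), and they summed to 15330.3 to 19334 in Foxo1TKO against 9287 to 13133 in Foxo1Ctrl. The part of B cell content and of proliferation in the mitoribosomal changes was not tested.

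Promoters of 69 members were matched by symbol in RefSeq (GRCm38.p6), as 75 windows from 250 bases before to 50 after a transcription start. They were searched on both strands for short core motifs of factors known for mitochondrial gene promoters. The ETS core CCGGAAG, which Gabpa binds, was in 26 of 75 windows (34.7%), beside 8.86% of all 32851 promoters and 18.5% of the 12119 that belong to tested genes. The NRF1 core GCATGCGC was in 8 (10.7%, all promoters 2.71%, tested genes 5.28%) and the YY1 core AAGATGGC in 12 (16%, 2.75%, 4.64%). The E-box CACGTG, a Myc site, was in 7 (9.33%, 7.15%, 10%), and the forkhead core GTAAACA, which Foxo factors bind, in 2 (2.67%, 3.65%, 2.65%). These are shares of windows, so a member with several windows counts more than once. Each of the Mrpl2 windows held the E-box, so fewer than 7 members carried it. CCAAT was in 30 (40%, 37.4%, 38.3%) and GGGCGG in 39 (52%, 35.7%, 60.6%). Among the 14 windows of called members, several of them of Mrpl2, 4 held the ETS core, and among the other 61, 22 did. The 26 members with an ETS match had a median log2 fold change of 0.17 and the 43 without it 0.33. A match is a run of letters, not a bound site.

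The promoters below, 170 bases before to 30 after the start, are of members named above, shown because their matches differ while their expression changes do too. Capitals mark the ETS, NRF1 and YY1 cores on either strand. Mrpl52 (chr14:54426739-54426938, plus strand) holds the ETS core at 2 places, and its gene was called higher. Mrps27 (chr13:99344616-99344815, plus strand) holds an ETS and a YY1 core and was called higher. Mrpl12 (chr11:120484467-120484666, plus strand) holds none in this stretch and was called higher. Mrpl17 (chr7:105811058-105811257, minus strand) holds an NRF1 core in this stretch, with an ETS core elsewhere in its window, and just missed the threshold. Mrpl58 (chr11:115403582-115403781, plus strand) holds the ETS core at 2 places and had the lowest fitted change of the family.
Mrpl52: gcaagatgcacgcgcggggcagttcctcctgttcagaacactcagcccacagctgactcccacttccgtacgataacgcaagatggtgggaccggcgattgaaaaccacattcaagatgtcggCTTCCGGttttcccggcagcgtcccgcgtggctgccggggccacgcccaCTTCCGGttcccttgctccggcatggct
Mrps27: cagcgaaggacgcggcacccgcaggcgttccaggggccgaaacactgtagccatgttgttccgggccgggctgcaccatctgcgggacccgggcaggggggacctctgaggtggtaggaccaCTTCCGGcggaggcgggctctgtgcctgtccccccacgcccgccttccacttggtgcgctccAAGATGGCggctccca
Mrpl12: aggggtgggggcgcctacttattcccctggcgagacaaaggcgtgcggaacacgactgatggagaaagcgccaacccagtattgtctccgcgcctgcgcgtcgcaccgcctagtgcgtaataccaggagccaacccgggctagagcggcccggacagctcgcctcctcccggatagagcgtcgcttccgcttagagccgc
Mrpl17: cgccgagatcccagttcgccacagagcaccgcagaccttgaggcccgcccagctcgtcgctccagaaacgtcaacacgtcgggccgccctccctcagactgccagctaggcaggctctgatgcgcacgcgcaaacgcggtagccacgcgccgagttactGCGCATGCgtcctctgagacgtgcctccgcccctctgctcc
Mrpl58: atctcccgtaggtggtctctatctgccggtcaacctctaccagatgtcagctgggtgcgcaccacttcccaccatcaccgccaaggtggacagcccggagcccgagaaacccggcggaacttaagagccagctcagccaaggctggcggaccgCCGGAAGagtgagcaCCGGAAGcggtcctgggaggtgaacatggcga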

How the data were processed

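RNA sequencing gave 3 Foxo1TKO and 3 Foxo1Ctrl libraries of activated CD4 T cells. The authors aligned reads to GRCm38 with STAR (version 2.7.6a) and counted them with RSEM (version 1.3.1), as the submitters' processing notes and the study's methods state. They deposited, per library, expected counts and TPM values from RSEM, and a table of signal values, counts normalized with DESeq2. RSEM shares out reads that match several loci, so genes with pseudogene copies carry some uncertainty.

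Expected counts were rounded and tested across all genes with edgeR 4.0.16 in R 4.3.3 (TMM scaling, quasi-likelihood test, Benjamini-Hochberg adjustment, prior count 1), after a filter of 10 or more counts in 3 or more libraries. A gene was called at an adjusted p under 0.05. The SE is the log2 fold change divided by the root of the F statistic. The fits were tested on simulated data. Alternatives used DESeq2 1.42.0, limma 3.58.1 on log2(deposited signal + 1), other scalings and filters, an effective-length offset, a replicate block and each library left out. 3 more were added after the data were seen: a GC-content correction, this correction with the block, and the fit without Foxo1TKO replicate 1 and Foxo1Ctrl replicate 2. Positions are from GENCODE (GRCm38) and promoters from RefSeq. Library depth was 14783890 to 19675452 counts.

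Genes named in the text were the 8 members with the largest called change in each direction, the 3 highest and 3 lowest by mean TPM, the members nearest the threshold on either side, 13 members with described roles, and from each related list up to 3 called genes in each direction (all of a list of up to 5); others are marked. The members, lists and tests were chosen with earlier results of these data known.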

Additional observations from a re-analysis of the deposited data

Results flagged for a closer look

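Mrpl23-ps1, a pseudogene of Mrpl23 that the naming rule leaves out, gave a signal above the control libraries in every Foxo1TKO library. It had 265, 313 and 333 normalized counts in Foxo1TKO and 165, 221 and 169 in Foxo1Ctrl, a log2 fold change of 0.72 ± 0.21 (SE; adjusted p = 0.0427 by edgeR), close to the 0.63 of Mrpl23 itself. Reads that match both loci are shared out by the counting, and how many of these reads belong to the pseudogene was not tested. Mrpl48-ps had at most 36.5 normalized counts in any library, and the 3 Mrps36 pseudogenes were below the filter. With 3 libraries per genotype no single library was tested as an outlier within its group.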

How the results depend on the processing

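The 13 members called higher came to between 10 and 18 under other scalings, filters, DESeq2, limma, a length offset, a GC-content correction and a fold above 1.5 (12), and to 3 at an adjusted p under 0.01. Without 1 library they came to between 3 and 28, and 3 calls held in all 6 such fits, which have fewer samples. Without both Foxo1TKO replicate 1 and Foxo1Ctrl replicate 2 there were 49 higher and 1 lower. That fit was added after the data were seen, and its libraries were chosen over these same members, so its larger count follows in part from the choice. No member was called lower in any other setting. The 10 came from upper quartile scaling, 12.8% of the members, with 1576 of all 13691 genes called higher. The 18 came from DESeq2, 23.1% of the members beside 14.7% of all genes. At an adjusted p under 0.01, 729 of all genes were higher. The members' median log2 fold change stayed above 0 throughout, between 0.18 and 0.45 with 1 library left out, and moved to 0.53 without both. The 9 other genes of mitochondrial translation called higher came to 1 to 11 with 1 library left out, 14 with the GC-content correction and replicate block and 18 without both libraries; those called lower came to 0 to 1 and, without both, 6. Of 1058 alternative values for single genes, 892 kept direction and side of the threshold, 118 lost the call, 32 gained it and 16 changed sign; the cause was not tested.

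None of the values that changed sign belonged to a called gene. Without both libraries, Mrpl33 turned to 0.45, Mrps18c to 0.53, Aurkaip1 to 0.22, Mrpl10 to -0.040 and Mrps30 to -0.038 on the log2 scale. With 1 library left out, Mrpl33 ran from -0.27 to 0.26, Mrps18c ran from -0.27 to 0.37, Aurkaip1 ran from -0.24 to 0.12, Mrps21 ran from -0.067 to 0.39 and Mrpl47 ran from -0.0056 to 0.41. Without Foxo1Ctrl replicate 2 the values were 0.26 for Mrpl33, 0.37 for Mrps18c and 0.12 for Aurkaip1, and without Foxo1TKO replicate 1 0.10, 0.094 and 0.0055. Mrps21 turned to -0.020 without Foxo1TKO replicate 3 and -0.067 without Foxo1Ctrl replicate 1, and Mrpl47 to -0.0056 without Foxo1Ctrl replicate 3. With the GC-content correction Mrps18c turned to 0.030, and to 0.070 with the replicate block as well.

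The genotypes share replicate numbers 1 to 3, but same-numbered libraries deviated together with r = 0.43, 0.20 and -0.11, so the numbers were not taken to pair the libraries, nor did every library correlate best with its own number. A fit with the replicate block called 16 members higher and 0 lower (median 0.32) and 8 other genes of mitochondrial translation higher. A p that misses the threshold does not show that a member's level was equal in both genotypes.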
